A study of Mus musculus with 30 samples.

Results

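Gastrocnemius and triceps brachii were compared within mice whose spinal cord had been transected at the third thoracic vertebral level (T3), 3 days after the operation. The comparison used 8 of the 30 libraries of the series, 4 gastrocnemius and 4 triceps, taken by their labels: T3 surgery, sample descriptions carrying the number 60, and the animal numbers 6, 7, 8 and 10, by which the muscles were paired. All 11249 genes of the deposited table were tested. Beside them stood 4 paired sham-operated mice (numbers 1, 2, 4 and 5) and 4 paired mice transected at the ninth thoracic level (T9, numbers 11, 12, 13 and 15), each with 1 gastrocnemius and 1 triceps library. A further 2 triceps libraries per group, numbered 57, had no gastrocnemius partner and took no part in the main fit. They served for levels, for a count of genes by level, and in an alternative fit of all 30 libraries. All animals were male, and every group was sampled at the same time after surgery; no allele, transgene or drug was named, and neither strain nor age is given. RNA came from a piece of whole muscle, so each library mixes fibres with nerve, vessel, connective tissue and immune cells. The labels do not state that a number marks an animal, so that the muscles of 1 number came from 1 mouse is an inference, examined in the account of the processing.

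The gastrocnemius, a calf muscle, is driven by motor neurons of the lumbar cord, below either transection. The triceps of the forelimb is driven from the cervical cord, above both, so that within an injured mouse a muscle cut off from the brain is compared with one that keeps its descending input while both share the same blood. Muscle deprived of nerve activity is known to switch on acetylcholine receptor subunits, the myogenic factors Myog and Myod1, and Gadd45a, Hdac4 and Cdkn1a. Endurance-type activity maintains the coactivator PGC-1α (Ppargc1a), which with the oestrogen-related receptors and PPARα drives genes of mitochondria, fatty acid oxidation and ketone use. Glucocorticoids released by the adrenal reach all muscles through the circulation and induce the ubiquitin ligases of atrophy, and the study asked how the level of a cord lesion bears on muscle wasting driven by such hormones.

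The 4 T3 gastrocnemius libraries held 14.8 to 18.3 M assigned reads (M, 1e+06 reads) and the 4 triceps libraries 15.7 to 23.4 M. The libraries differed in composition: the median gene had a log2 CPM (reads of the gene per 1e+06 reads of the library) of 4.17 ± 0.101 (SD, n = 4) in gastrocnemius and 3.93 ± 0.149 in triceps, higher in gastrocnemius in 4 of 4 mice. Mitochondrially encoded transcripts made up 7.88% ± 0.273 of reads in gastrocnemius and 14% ± 2.19 in triceps, lower in 4 of 4 mice (exact sign-flip test, two-sided p = 0.125, the smallest that 4 pairs allow). Among the sham animals, mouse 4 stood apart, with muscles that deviated in opposite directions from their group means (r = -0.638 across genes), and its triceps had the lowest median of all libraries, 3.29. T3 values are listed below as CPM in the order of mice 6, 7, 8 and 10, and sham values in the order 1, 2, 4 and 5. Differences are log2 gastrocnemius minus triceps. Each ± value beside a difference is limma's moderated standard error, with the spread pooled over all 12 paired mice of sham, T3 and T9. It is not the spread of the 4 T3 mice alone. The limma p is adjusted over all genes, and a gene was called at an adjusted p under 0.05. Counts of a gene list without mouse 7, 8 or 10 are given, in that order, where leaving out 1 of these mice moved the count by more than 1.5 times.

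After T3, 2304 genes were higher in gastrocnemius than in triceps and 1119 were lower, so that 30.4% of all genes were called (20.5% higher, 9.95% lower). The sign was the same in all 4 mice for 2240 of the higher and 1100 of the lower genes, against 6767 of all 11249 genes. Centring each library on its median gene removed the surplus of higher genes and gave 1784 higher (15.9%) and 1801 lower (16%). Call numbers rested on single mice: higher and lower genes numbered 983 (8.74%) and 633 (5.63%) without mouse 7, 391 (3.48%) and 397 (3.53%) without mouse 8, and 247 (2.2%) and 345 (3.07%) without mouse 10, against 2591 (23.0%) and 1098 (9.76%) without mouse 6. The spread is estimated over all groups, and leaving out sham mouse 4 gave 3836 higher and 1709 lower. Sham mice themselves had 4374 called genes (38.9%), 3020 higher (26.8%) and 1354 lower (12.0%), and 67 higher and 29 lower without sham mouse 4. Of the 2304 higher genes, 2192 (95.1%) had a difference of the same sign in sham mice, against 81.4% of all genes. Of the 1119 lower genes 898 (80.3%) did. The share of all genes pools both signs, and the median sham difference of all genes was 0.27. It is therefore no fair baseline for higher or lower genes taken alone.

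Nerve sheath genes and some limb patterning genes were among the differences that sham mice had as well. Periaxin (Prx), which organises the myelin sheath, was at 15.8, 6.85, 15.1 and 11.1 CPM in gastrocnemius and at 3.69, 1.81, 2.01 and 1.74 in triceps, with no overlap of the groups. Its difference was 2.39 ± 0.35 after T3 (adjusted p = 0.0011) and 2.53 in sham. Myelin basic protein (Mbp) differed by 2.43 ± 0.29. In all, 5 of 7 Schwann cell and nerve markers were higher and none lower, and their summed level was 85.9 to 158 CPM in gastrocnemius and 31.2 to 49.4 in triceps, and 5 were higher and none lower with any of mice 6, 7, 8 and 10 left out. In whole-muscle RNA, more cells of a type and more RNA per cell cannot be told apart.

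Six2, a homeobox factor of limb muscle and tendon, was at 16.6, 10.5, 17.6 and 19.5 CPM in gastrocnemius and 1.18 to 4.36 in triceps, a difference of 2.80 ± 0.29 (adjusted p = 0.00013), and of 3.15 in sham. Of 58 limb identity and patterning genes listed, 22 were in the table, of which 6 were higher (4, 4 and 3) and 2 lower (1, 1 and 0). The counts were 5 and 5 with centred libraries and 4 and 7 with length and GC removed, so that the balance turned with the scaling. En1 was 1.70 ± 0.29 and Hoxd9 1.14 ± 0.20 higher in gastrocnemius, and neither muscle group overlapped the other. Tbx4, the T-box gene of the hindlimb, gave 0.72 ± 0.33 (adjusted p = 0.10) at levels of only 1.64 to 5.51 CPM. Rasd2, a small GTP-binding protein, was at 34.5 to 91.6 CPM in gastrocnemius and 3.93 to 17.1 in triceps (2.46 ± 0.32, adjusted p = 0.00054; 3.57 in sham). For none of these positional genes did the T3 difference pass the test against sham: the T3 difference minus the sham difference was -0.36 ± 0.41 for Six2, -0.19 ± 0.41 for En1 and -0.21 ± 0.28 for Hoxd9.

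Of 20 fast-fibre genes, 5 were higher (4, 0 and 0) and 2 lower (none in each case), shares near those of all genes; among 16 slow-fibre genes, none was higher and 6 were lower. Myh4, the heavy chain of the fastest fibres, was at 58200, 47800, 46200 and 52500 CPM in gastrocnemius and at 33100, 26300, 19300 and 11200 in triceps (1.29 ± 0.35, adjusted p = 0.020; 1.56 in sham). That call was lost without mouse 10 (adjusted p = 0.14) or mouse 8 (0.073). Myh7, the slow heavy chain, overlapped between the muscles and gave 0.49 ± 0.74.

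A smaller set differed between the muscles in another way after T3 than in sham mice. The T3 difference minus the sham difference passed the test for 140 genes (1.24%), of which 124 had a lower value after T3 (1.1%) and 16 a higher one (0.142%); the corresponding numbers were 188 (1.67%) and 60 (0.533%) with centred libraries. The 124 became 76, 52 and 75 without mouse 7, 8 or 10, 62 without sham mouse 5 and 82 without T9 mouse 15. The 16 were less steady: 55 without mouse 6, 40 without sham mouse 4, 4, 2 and 5 without mouse 7, 8 or 10, and 5 to 9 without sham mouse 2 or 5 or T9 mouse 12, 13 or 15. Of the 124, triceps was on average higher after T3 than in sham for 109 and gastrocnemius lower for 114, and both held for 99. Their median level was 0.88 above sham in triceps and 0.79 lower in gastrocnemius on the log2 scale. All genes had medians of 0.32 and 0.27 above sham. These counts and medians come from the same libraries that chose the 124 genes. A higher triceps, a lower gastrocnemius or both was therefore built in by the choice. The unpaired triceps libraries, which took no part in the choice of these genes, gave both T3 libraries above both sham libraries for 80 of the 124 (64.5%), against 37.9% of all genes. Without sham mice 4 and 5, whose triceps medians were lowest, 37 genes were lower and 5 higher.

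**Figure D1:**
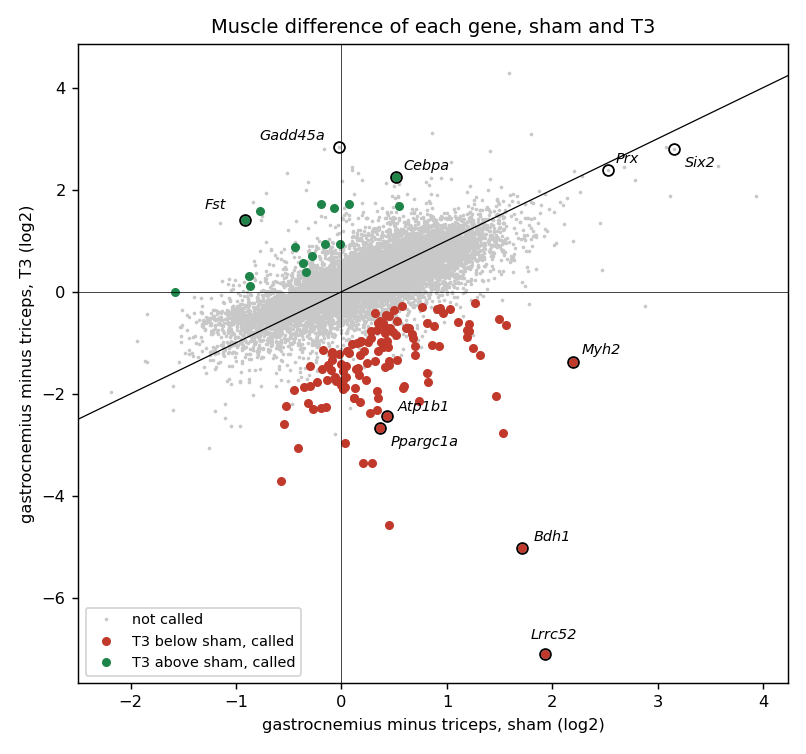
Gastrocnemius minus triceps difference of every gene (log2) in sham mice on the horizontal axis and after T3 on the vertical axis, 4 mice each; the line marks equal differences, red and green points are the 124 and 16 genes whose T3 difference passed the test below or above the sham difference. Prx and Six2 lie near the line, while Bdh1 (1.72 in sham, -5.02 after T3) and Lrrc52 lie far below it.

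The coactivator Ppargc1a was low in the gastrocnemius and high in the triceps of the same T3 mice. It was at 31.0, 34.2, 18.4 and 17.6 CPM in gastrocnemius and at 170, 287, 154 and 76.6 in triceps, so that the groups lay far apart. The difference was -2.68 ± 0.19 (adjusted p = 4.3e-06), while sham mice had 62.7, 49.4, 29.1 and 21.1 against 50.5, 35.6, 16.8 and 22.8 and a difference of 0.37. The change of the difference was -3.04 ± 0.26 (adjusted p = 1.0e-04). In the unpaired triceps libraries Ppargc1a stood at 212 and 213 CPM after T3 and at 83.6 and 36.4 in sham. Every T3 triceps library exceeded every sham triceps library, except that mouse 10 lay below the higher unpaired sham library, whereas the T3 and sham gastrocnemius ranges overlapped.

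Perm1, a muscle factor induced by PGC-1α that in turn promotes mitochondrial genes, was at 84.8, 170, 47.7 and 45.0 CPM in gastrocnemius and 227, 350, 252 and 209 in triceps. Its difference of -1.77 ± 0.28 differed from that in sham by -2.59 ± 0.39 (adjusted p = 0.0068; 0.064 without sham mice 4 and 5). Ppara, the nuclear receptor of fatty acid oxidation, had 4.05 to 7.93 CPM in gastrocnemius and 9.76 to 19.6 in triceps, a difference of -1.60 ± 0.26 against 0.81 in sham (change -2.41 ± 0.37, adjusted p = 0.0071). Of 20 listed regulators of mitochondrial genes and their known targets, 10 were lower and 2 higher (higher in none without mouse 7, 8 or 10), with a median of -0.80 against 0.23 for all genes and 0.22 for the list in sham. For 5 of the 20 the difference from sham passed the test, all downward.

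A gene of ketone body use gave the widest separation among the genes with reads in every library. Bdh1, the mitochondrial enzyme that oxidises β-hydroxybutyrate, was at 4.76, 1.29, 2.13 and 1.48 CPM in gastrocnemius and at 51.3 to 119 in triceps. The difference was -5.02 ± 0.32 (adjusted p = 3.6e-06). Sham mice had the opposite order, with 34.8, 44.2, 46.7 and 21.6 CPM in gastrocnemius and 17.5, 19.7, 9.77 and 3.91 in triceps, so that the change of the difference reached -6.73 ± 0.46 (adjusted p = 7.7e-06). Gastrocnemius was lower after T3 than in any sham mouse, and triceps higher; the unpaired triceps libraries read 123 and 139 CPM after T3 and 24.3 in both sham libraries. Oxct1, the next enzyme of ketone use, was at 153 to 184 CPM in gastrocnemius and 312 to 560 in triceps (-1.22 ± 0.15, adjusted p = 0.00047). Its change from sham, -1.19 ± 0.22 (adjusted p = 0.018), was not called without mouse 10 (0.054), mouse 8 (0.079) or sham mouse 5 (0.056), and its unpaired T3 triceps values of 333 and 544 spanned the sham values of 407 and 375.

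**Figure D2:**
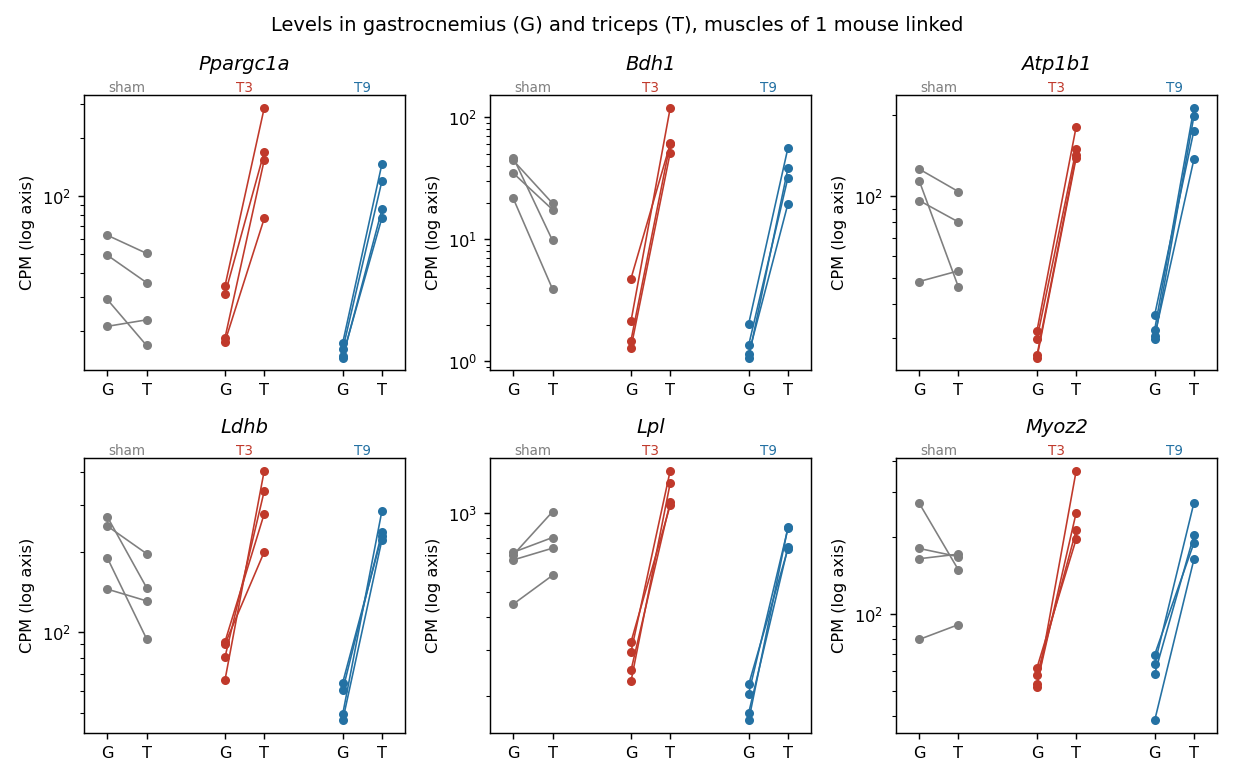
Levels of Ppargc1a, Bdh1, Atp1b1, Ldhb, Lpl and Myoz2 in CPM on log axes, with each point 1 library and each line joining the gastrocnemius (G) and triceps (T) of 1 mouse in the sham, T3 and T9 groups (4 mice each). Every T3 and T9 line rises from gastrocnemius to triceps, whereas the sham lines fall, or rise less steeply.

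Genes that bring fatty acids into the fibre and its mitochondria followed. Lpl, the lipase that frees fatty acids from circulating lipoproteins, was at 321, 294, 250 and 227 CPM in gastrocnemius and 1070, 1450, 1100 and 1300 in triceps. With a difference of -2.18 ± 0.14 it fell below the sham difference by 1.86, and the unpaired triceps libraries again separated, at 2060 and 1840 CPM after T3 and 710 and 779 in sham. Fabp3, the fatty acid carrier of muscle, was at 303 to 707 CPM in gastrocnemius and 876 to 3490 in triceps (-2.26 ± 0.30, adjusted p = 0.00064); reads of Fabp3 may be shared with a processed pseudogene. Acaa2, the last enzyme of β-oxidation, gave -1.18 ± 0.14. The change from sham of Fabp3 (-2.11 ± 0.43, adjusted p = 0.031) was lost without mouse 8 (0.13) or 10 (0.057), sham mouse 1 (0.067), 2 (0.055) or 5 (0.11), or T9 mouse 13 (0.053) or 15 (0.052), and also with centred libraries (0.067), voom weights (0.067) or no pairing (0.061). That of Acaa2 (-1.09 ± 0.20, adjusted p = 0.020) was lost without mouse 7 (0.050), 8 (0.091) or 10 (0.057) or sham mouse 5 (0.073), and with centred libraries (0.070) or voom weights (0.071). In all, 16 of 31 genes of fatty acid uptake and oxidation were lower (13, 8 and 7) and 3 higher (2, 1 and 1), with a median of -0.42 against 0.24 in sham.

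In the tricarboxylic acid cycle and its inputs, 12 of 24 genes were lower in gastrocnemius (10, 7 and 5) and 1 was higher (1, 0 and 0). Mdh1, the cytosolic malate dehydrogenase of the shuttle that carries reducing equivalents, was at 277, 346, 257 and 276 CPM in gastrocnemius and 688, 788, 1440 and 1420 in triceps (-1.83 ± 0.20, adjusted p = 0.00018; change from sham -1.83 ± 0.28, adjusted p = 0.0071). Idh2, the NADP-dependent mitochondrial isocitrate dehydrogenase, had -1.05 ± 0.17 after T3 and 0.70 in sham. Ldhb, the lactate dehydrogenase subunit of oxidative muscle, was at 66.2 to 92.1 CPM in gastrocnemius and 200 to 403 in triceps, a difference of -1.85 ± 0.21 that lay 2.45 below the sham difference. Of 27 genes of glycolysis and glycogen, 10 were higher (3, 3 and 0) and 4, Ldhb among them, were lower (3, 1 and 1).

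Respiratory chain genes were lower too, but here sham mice had a difference of the same sign. Of 49 nuclear genes of the chain, none was higher and 43 were lower, with a median of -0.90 after T3 and -0.67 in sham. Without mouse 7, 8 or 10 the lower members numbered 35, 15 and 14. Cycs, cytochrome c, was at 187, 246, 181 and 200 CPM in gastrocnemius and 388, 572, 846 and 1170 in triceps (-1.76 ± 0.29, adjusted p = 0.0018). Only 1 of the 49 genes passed the test against sham: Sdhd, a membrane anchor of succinate dehydrogenase, with -1.13 ± 0.15 after T3 and a change of -0.96 ± 0.21 (adjusted p = 0.045), which did not hold with centred libraries (0.18) or without mouse 8 (0.17), mouse 10 (0.12), sham mouse 1 (0.10) or 5 (0.13), or any T9 mouse (0.058 to 0.072). Of 15 mitochondrially encoded genes 12 were lower (11, 7 and 6), with a median of -0.98; mt-Co2, a cytochrome oxidase subunit, was at 4700 to 5260 CPM in gastrocnemius and 7890 to 14200 in triceps (-1.06 ± 0.16, adjusted p = 0.0011). When the trend of each library with transcript length and GC content was taken out, 1 of the 15 was called, the list's median was -0.02 and mt-Co2 gave -0.24 (adjusted p = 0.43).

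Promoter sequence was at hand for part of these genes. PGC-1α acts largely through oestrogen-related receptors, which bind the word AAGGTCA, and this word was sought on both strands of the RefSeq windows (GRCm38.p6) that run from 250 bases before to 50 after each gene's start. It occurred in 4.72% of all 32851 windows, in 3.15% of 10770 windows of genes in the table, in 4.56% of 1030 windows of genes lower in gastrocnemius after T3 and in 2.7% of 2371 windows of higher genes. For the 124 genes below, 100 had windows, and 8 of their 132 windows (6.06%) held it. Perm1 and Sdhd were among them and are printed 5′ to 3′ on the gene's strand, with the letters of this word, which lie on the other strand and so read TGACCTT, in capitals. The Perm1 window is chr4:156215677-156215976 on the plus strand, with the match at bases 49 to 55. The Sdhd window is chr9:50603800-50604099 on the minus strand, with the match at bases 287 to 293, past the start. A match is a run of letters, and binding was not measured.
Perm1: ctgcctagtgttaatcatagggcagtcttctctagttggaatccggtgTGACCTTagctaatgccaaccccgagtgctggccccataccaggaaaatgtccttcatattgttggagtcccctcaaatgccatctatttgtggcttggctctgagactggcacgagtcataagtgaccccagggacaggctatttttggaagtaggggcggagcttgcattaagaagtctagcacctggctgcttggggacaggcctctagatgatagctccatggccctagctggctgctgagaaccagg
Sdhd: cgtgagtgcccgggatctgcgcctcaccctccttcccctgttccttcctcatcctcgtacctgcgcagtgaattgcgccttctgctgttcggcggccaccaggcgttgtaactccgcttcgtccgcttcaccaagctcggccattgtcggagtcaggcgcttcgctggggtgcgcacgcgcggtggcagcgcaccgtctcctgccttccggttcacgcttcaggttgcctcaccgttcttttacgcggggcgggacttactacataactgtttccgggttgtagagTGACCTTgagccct

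Of 16 sarcomere and calcium genes of slow fibres, 4 passed the test against sham, all downward (2 with centred libraries), and the list's median was -0.46 after T3 and -0.23 in sham. Myoz2, which tethers calcineurin at the Z-disc of slow fibres, was at 57.6, 61.7, 53.4 and 51.8 CPM in gastrocnemius and 214, 197, 250 and 365 in triceps, with -2.15 ± 0.20 after T3 and a change from sham of -2.33. Casq2, the calcium store protein of slow fibres, was at 9.51 to 11.4 CPM in gastrocnemius and 35.9 to 64.3 in triceps (-2.30 ± 0.21, change -2.02 ± 0.30). The unpaired triceps libraries separated for Myoz2, at 242 and 264 after T3 and 119 in both sham libraries, but not for Casq2, at 43.1 and 56.5 after T3 and 45.7 and 45.3 in sham. Myl2, the slow regulatory light chain, differed by -2.27 ± 0.32 and Csrp3, a mechanosensing Z-disc protein, by -2.20 ± 0.30. The change from sham of Csrp3 was -1.73 ± 0.42 (adjusted p = 0.065), and that of Myl2, -2.07 ± 0.45 (adjusted p = 0.040), was lost when any 1 T3 mouse was left out (0.062 to 0.10), and without sham mouse 1, 2 or 5 (0.078 to 0.13) or T9 mouse 11 or 15 (0.054 and 0.057), and with centred libraries (0.066), voom weights (0.060), mouse as a random effect (0.062) or no pairing (0.26).

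Myh2, the heavy chain of fast oxidative fibres, reversed its order. It was at 1010, 479, 437 and 342 CPM in gastrocnemius and 2400, 1270, 1270 and 834 in triceps of T3 mice; the groups overlapped, since mouse 6 was high and mouse 10 low in both muscles, yet triceps was higher in each mouse. Sham mice had 1260, 2260, 3920 and 608 CPM in gastrocnemius and 655, 781, 202 and 149 in triceps. The difference was -1.37 ± 0.40 after T3 (adjusted p = 0.025) and 2.20 in sham, a change of -3.57 ± 0.57 (adjusted p = 0.0080). The first of these was lost without mouse 7 (0.071), mouse 8 (0.093) or mouse 10 (0.10), while the second was called with each of the 12 mice left out in turn. Unpaired sham triceps libraries, at 3100 and 3280 CPM, lay above all paired sham triceps libraries and above the unpaired T3 ones at 2150 and 2670, and with all 30 libraries in an unpaired fit the change was -2.79 (adjusted p = 0.070).

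Several genes outside the energy pathways had the same shape. Atp1b1, the β1 subunit of the sodium pump, was at 25.3, 25.8, 31.8 and 29.7 CPM in gastrocnemius and 139, 142, 181 and 149 in triceps, a narrow spread on either side. Its difference was -2.44 ± 0.19 after T3 (adjusted p = 1.0e-05) and 0.43 in sham, and its change -2.87 ± 0.26 (adjusted p = 0.00012). All paired sham libraries, at 46.1 to 126 CPM, lay between the T3 gastrocnemius and T3 triceps levels. The unpaired triceps libraries were at 297 and 283 after T3 and 159 and 158 in sham. Lrrc52, an auxiliary subunit of a potassium channel, had no read in any T3 gastrocnemius library and 344 reads in triceps (2.86, 2.68, 6.80 and 4.83 CPM), at least 104-fold lower when 3 reads over the group are taken as the most that a count of 0 allows. Sham gastrocnemius had 4.15, 2.07, 2.15 and 1.65 CPM and sham triceps 0.301 to 1.69, so that the order was opposite there (1.93).

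Snai3, a zinc-finger factor of the Snail family, was at 4.05 to 5.74 CPM in gastrocnemius and 21.9, 43.1, 59.1 and 39.9 in triceps (-2.96 ± 0.24; 0.03 in sham). Its paired triceps levels after T3 were above those of all sham triceps libraries, as were the unpaired ones at 44.4 and 40.9 against 7.05 and 9.92. Prkg1, the cGMP-dependent kinase, was at 4.34 to 6.02 CPM in gastrocnemius after T3 and 24.7 to 40.9 in sham, while its triceps ranges, 22.7 to 47.1 and 31.9 to 53.3, overlapped (-2.59 ± 0.20 after T3, -0.54 in sham). Ppm1k, the phosphatase that activates branched-chain keto acid breakdown, differed by -1.45 ± 0.17 (0.04 in sham), and 7 of 18 genes of that pathway were lower (5, 4 and 3) and 2 higher (none in each case). Dusp18, a dual-specificity phosphatase, went from 1.47 in sham to -2.04 ± 0.29.

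Of the 16 genes whose difference rose against sham, Fst, the secreted antagonist of myostatin and activin, was at 5.91, 4.61, 7.95 and 8.04 CPM in T3 gastrocnemius and 4.07, 1.99, 2.65 and 1.59 in triceps. That is 1.41 ± 0.26 after T3 and -0.92 in sham, a change of 2.32 ± 0.37 (adjusted p = 0.0078). Ccdc136, a coiled-coil protein, had 54.1 to 89.2 CPM in gastrocnemius and 12.3 to 41.4 in triceps, the gastrocnemius values lying above every paired sham library of either muscle (8.73 to 12.6); its change of 1.65 ± 0.29 (adjusted p = 0.014) was lost without mouse 8 (0.069). Cebpa, a transcription factor of metabolic and fat cells, was at 14.5 to 24.6 CPM in gastrocnemius and 3.59 to 5.28 in triceps (2.25 ± 0.27). Its change of 1.73 ± 0.38 (adjusted p = 0.044) was lost in 9 of 12 fits that left out 1 mouse (0.066 to 0.17). Gpx3, a secreted glutathione peroxidase, did not differ detectably after T3 (-0.01 ± 0.16), while sham gastrocnemius, at 138 to 197 CPM, lay well below sham triceps at 434 to 699 (change 1.56 ± 0.23, adjusted p = 0.0057).

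**Figure D3:**
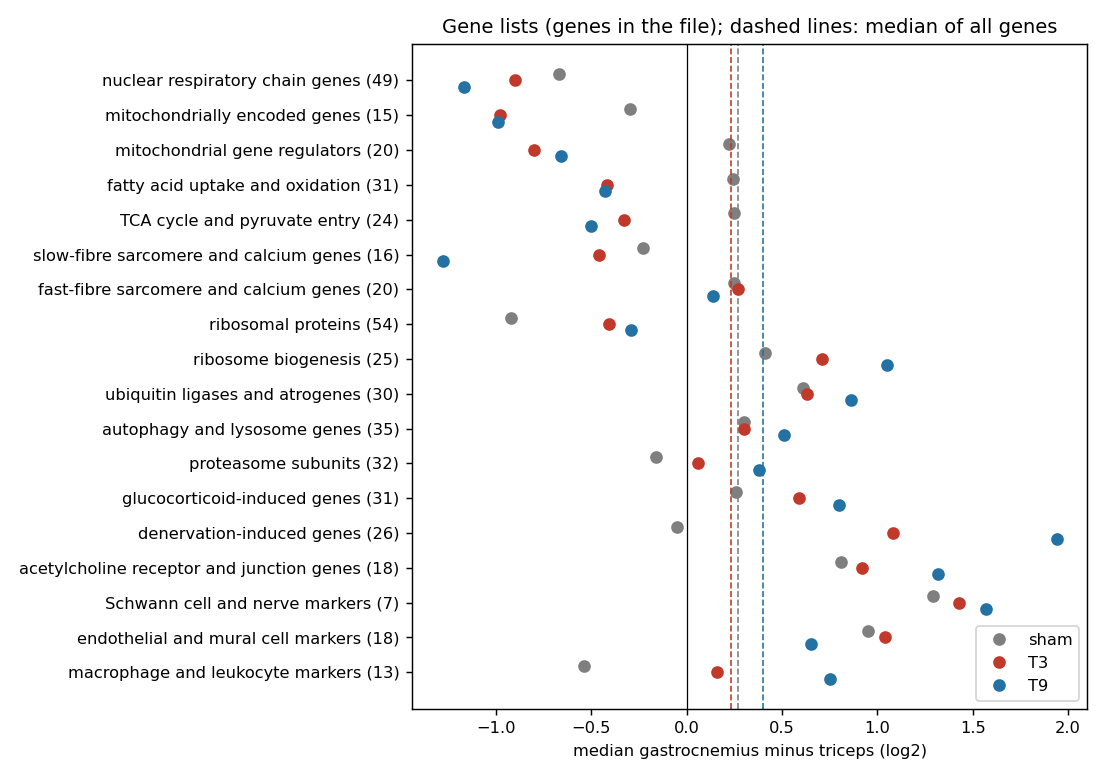
Median gastrocnemius minus triceps difference (log2) of the genes of 18 lists in sham, T3 and T9 mice, with the number of genes of each list in the table; dashed lines mark the median of all genes (0.27, 0.23 and 0.40). Regulators of mitochondrial genes sit at -0.80 after T3 and 0.22 in sham, and denervation-induced genes at 1.08 and -0.05.

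The best known ubiquitin ligases of protein breakdown stood at high levels in both muscles of T3 mice. Fbxo32, the ubiquitin ligase atrogin-1, was at 2430, 1830, 1580 and 1390 CPM in gastrocnemius and 1710, 1200, 664 and 240 in triceps, where the paired sham libraries read 134 to 325 and 100 to 243. T3 was not tested against sham within a muscle here; only the triceps of mouse 10 fell within the sham range. The difference was 1.22 ± 0.30 (adjusted p = 0.014), not called without mouse 10 (0.79, adjusted p = 0.095) or mouse 8 (0.061). Trim63, the ligase MuRF1, was at 1360 to 2390 and 565 to 2560 CPM, with 0.39 ± 0.17 (adjusted p = 0.094). The triceps level of both ligases was highest in mouse 6 and lowest in mouse 10. Of 30 atrophy-linked ubiquitin genes 11 were higher in gastrocnemius and 2 lower, with a median of 0.63 after T3 and 0.61 in sham; without mouse 7, 8 or 10 the higher ones numbered 9, 2 and 1 and none was lower.

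Foxo1, the transcription factor that drives several of these genes, was at 67.2 to 94.1 CPM in gastrocnemius and at 78.7, 28.8, 23.4 and 13.7 in triceps (1.35 ± 0.29, adjusted p = 0.0083; 0.067 without mouse 10). Sqstm1, the autophagy receptor p62, was at 1680, 2140, 1240 and 1150 CPM against 942, 776, 473 and 309 (1.40 ± 0.18, adjusted p = 0.00059; 0.63 in sham), and cathepsin L (Ctsl), a lysosomal protease, differed by 1.14 ± 0.22. Among 35 autophagy and lysosome genes, 15 were higher (8, 2 and 2) and 1 lower (none in each case), with a median of 0.30 in T3 and in sham. Proteasome subunits differed little: 8 of 32 were higher (7, 1 and 1), 3 with centred libraries, and the median was 0.06. Psmc4, an ATPase of the proteasome's cap, was at 223 to 363 CPM in gastrocnemius and 139 to 248 in triceps, with all T3 libraries above the paired sham range of 72.1 to 96.2.

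Glucocorticoid-responsive genes were higher in gastrocnemius for 14 of 31 listed members (13, 9 and 7) and lower for 3 (1, 1 and 4), with a median of 0.59 after T3 and 0.26 in sham. Tsc22d3, the mediator GILZ, was at 412, 240, 371 and 323 CPM in gastrocnemius and 250, 134, 175 and 151 in triceps; the order of the mice was the same in both muscles, and within each mouse gastrocnemius was higher (0.94 ± 0.12, adjusted p = 0.00057). Ddit4, an inhibitor of mTORC1 signalling, had 186 CPM in the gastrocnemius and 106 in the triceps of mouse 6 and 25.1 to 35.4 and 11.8 to 16.5 in the other mice. Its paired difference was 1.10 ± 0.14 (adjusted p = 0.00054), and 1.10 with adjusted p = 0.27 when the pairing was not used. Fkbp5, a co-chaperone of the receptor, gave 0.58 ± 0.22 (adjusted p = 0.059) after T3 and 0.70 in sham. Hsd11b1, the enzyme that regenerates active glucocorticoid inside cells, was at 13.1, 48.5, 10.7 and 14 CPM in gastrocnemius and 4.02 to 6.80 in triceps, a difference of 1.64 ± 0.27 (adjusted p = 0.0021) against 0.03 in sham; the change was 1.61 ± 0.39 (adjusted p = 0.063; 0.039 without mouse 6).

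Dusp1, a glucocorticoid-induced phosphatase, went the other way: 15.8 to 22.3 CPM in gastrocnemius against 31.3, 42.3, 59.2 and 21.3 in triceps (-0.98 ± 0.23, adjusted p = 0.011; not called without mouse 7, 0.053, or mouse 8, 0.069). The polyamine enzymes Smox and Amd1 depend on androgens in muscle. In both muscles Smox stood below the paired sham libraries after T3, a comparison that was not tested. Smox was at 52.0 to 68.9 CPM in gastrocnemius and 44.6 to 69.4 in triceps after T3, whereas sham libraries of the pairs read 473 to 1030 and 214 to 1020. Between the T3 muscles Smox differed by 0.22 ± 0.19 and Amd1 by 0.19 ± 0.17, neither of which was called, and their sign turned with centred libraries (-0.02 and -0.05).

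Of 26 genes listed as induced by loss of nerve activity, 13 were higher in gastrocnemius (9, 7 and 6) and 2 lower, against 4 higher and 3 lower in sham, and their median was 1.08 after T3, -0.05 in sham and 0.23 for all genes after T3. The median over the list was 0.05 in mouse 6, 0.99 in mouse 7, 1.51 in mouse 8 and 1.82 in mouse 10. Gadd45a, a stress gene of denervated muscle, was at 172, 291, 234 and 307 CPM in gastrocnemius and at 171, 24.9, 18.1 and 18.1 in triceps. Mouse 6 therefore had the same high level in both muscles, and the difference of 2.83 ± 0.51 (adjusted p = 0.0033) rests on the other three animals. Cdkn1a, the cell-cycle inhibitor p21, had the same layout, with 124, 354, 274 and 310 CPM against 113, 52.6, 44.7 and 35.7 (2.15 ± 0.44, adjusted p = 0.0064; 0.052 without mouse 10). Hdac4, the deacetylase that relays denervation to Myog and the receptor genes, was at 161, 133, 136 and 146 CPM against 79.2, 21.6, 19 and 11, the triceps of mouse 6 being highest (2.55 ± 0.35).

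Myog itself was at 9.19, 70.9, 52.0 and 61.2 CPM in gastrocnemius and 13.6, 8.97, 10.8 and 6.07 in triceps (2.0 ± 0.62, adjusted p = 0.031). Mouse 6 was thus the lowest in gastrocnemius but the highest in triceps. Myod1 was lowest in both muscles of mouse 6, with 5.14, 62.2, 137 and 88.0 CPM against 3.94, 18.6, 33.5 and 21.2 (1.55 ± 0.28, adjusted p = 0.0033). So in mouse 6 the stress genes were high in the forelimb and the myogenic factors were low in the hindlimb. Chrna1, the α subunit of the muscle acetylcholine receptor, was at 41.0, 52.3, 45.1 and 63.1 CPM in gastrocnemius and 28.4, 11.3, 11 and 8.51 in triceps (1.91 ± 0.50, adjusted p = 0.017), and Chrnd, the δ subunit, at 4.92 to 15.9 against 1.74 to 4.83 (1.74 ± 0.60, adjusted p = 0.043). Among 18 receptor and junction genes 9 were higher and none lower after T3 (median 0.92), and 10 were higher and none lower in sham (median 0.81), with no member called between T3 and sham. Without mouse 7, 8 or 10 the T3 count was 2, 0 and 0, Myog gave adjusted p of 0.11, 0.10 and 0.18, Chrna1 0.060, 0.072 and 0.12, and Chrnd 0.095, 0.13 and 0.24, and Chrnd also missed the threshold without sham mouse 2 or any of T9 mice 12, 13 and 15 (0.051 to 0.058).

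Prune2 had the widest positive difference of the list, with 64.5, 34.1, 29.8 and 32.4 CPM in gastrocnemius and 6.80, 1.62, 2.27 and 0.548 in triceps (4.28 ± 0.61, adjusted p = 0.00091), and here mouse 6 was the highest in both muscles but shared the difference (3.24). Dach2, a corepressor that is known to fall on denervation, was lower in gastrocnemius, at 0.296 to 0.875 CPM against 2.35 to 4.78 (-2.47 ± 0.37). No gene of the list passed the test against sham with all mice as fitted; 3 did, all upward, with centred libraries, and 5 upward and 1 downward with length and GC removed. Gadd45a passed when libraries were centred (adjusted p = 0.041) and with mouse as a random effect (0.017), as did Cdkn1a (0.032 and 0.026). With mouse 6 left out, 6 did, all upward (0.489% of all genes were higher in that fit), among them Gadd45a (3.80, adjusted p = 0.00043), Cdkn1a (3.14, 0.0086) and Hdac4 (2.02, 0.027). That fit was 1 of the 12 that each left out a mouse, and its count for this list was singled out after these values were seen.

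**Figure D4:**
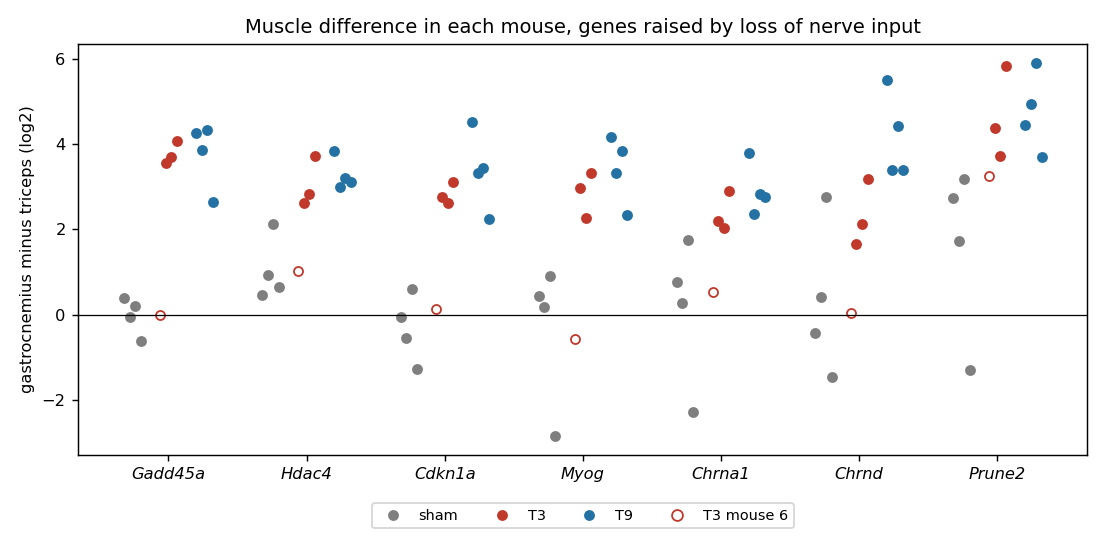
Gastrocnemius minus triceps difference (log2) in each mouse for 7 genes induced by loss of nerve activity, in sham (grey), T3 (red) and T9 mice (blue), 4 mice each; the open red circle is T3 mouse 6. For Gadd45a mouse 6 lies at 0.00 among the sham mice, and the other T3 mice lie between 3.55 and 4.08.

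The promoter of Chrna1 is printed because myogenic factors such as Myog are known to act on the receptor genes through E-boxes. Its RefSeq window (GRCm38.p6), chr2:73580289-73580588 on the minus strand and written 5′ to 3′, holds the E-box CAGCTG, which reads alike on both strands, at bases 159 to 164 and 207 to 212, in capitals. That word is common: it was in 16.3% of all windows, in 16.6% of those of genes higher in gastrocnemius after T3 and in 15.5% of those of lower genes.
Chrna1: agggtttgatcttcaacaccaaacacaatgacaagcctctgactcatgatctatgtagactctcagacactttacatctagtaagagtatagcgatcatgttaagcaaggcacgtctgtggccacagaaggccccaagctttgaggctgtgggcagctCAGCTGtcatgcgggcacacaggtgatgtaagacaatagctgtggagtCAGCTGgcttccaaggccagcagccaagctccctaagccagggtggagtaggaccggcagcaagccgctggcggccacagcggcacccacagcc

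Of 20 immediate early genes 4 were higher (2, 2 and 2) and 4 lower (2, 2 and 4) after T3. Of 18 mechanical stress genes 6 were higher (2, 1 and 1) and 4 lower. Myc, a driver of ribosome production, was at 8.26 to 17.7 CPM in gastrocnemius and 1.29 to 4.64 in triceps (2.44 ± 0.49, adjusted p = 0.0056; 0.10 in sham). Of 25 ribosome biogenesis genes 15 were higher and none lower after T3 (median 0.71), and 11 were higher and 1 lower in sham (median 0.41), with none called between T3 and sham. Of 54 ribosomal protein genes, many of which have near-identical pseudogenes, 1 was higher (none in each case) and none lower after T3. Leaving out 1 mouse gave up to 38 lower after T3. In sham 53 were lower, but without sham mouse 4 only 29 of all genes were lower in sham. No ribosomal protein gene was called between T3 and sham. Nucleolin (Ncl) was at 429 to 546 CPM in gastrocnemius and 194 to 343 in triceps (0.88 ± 0.18, adjusted p = 0.0064; 0.055 without mouse 10). The biogenesis count fell to 9, 4 and 1 without mouse 7, 8 or 10. Jun, a subunit of AP-1, was at 176 to 265 CPM against 58.9 to 79.0 (1.74 ± 0.25, adjusted p = 0.0010; 0.20 in sham). Maff, an immediate early gene, was lower in gastrocnemius (-1.50 ± 0.17, adjusted p = 0.00022).

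Markers of some other cell types also differed between the muscles, and the part of any cell type in the results was not tested. Counts of higher macrophage and fibroblast markers were near or below the share of all genes, 20.5%. Schwann cell markers, given above, had a median difference of 1.43 after T3 and 1.29 in sham. Endothelial and mural markers were higher for 11 of 18 and lower for 1 (1, 0 and 0), with a summed level of 1060 to 1210 CPM in gastrocnemius and 839 to 944 in triceps. The count of higher markers fell to 4, 1 and 1 without mouse 7, 8 or 10. Their median difference, 1.04 after T3, was 0.95 in sham. Cldn5, the tight junction protein of endothelium, was at 14.4 to 26.6 CPM against 4.68 to 7.22 (1.68 ± 0.18, adjusted p = 0.00013). Of 13 macrophage and leukocyte markers 1 was higher (none in each case), with summed levels of 75.0 to 88.6 and 64.5 to 94.3 CPM that overlapped. Among 14 fibroblast and tendon markers 3 were higher (1, 0 and 0) and 1 lower (1, 1 and 0), with summed levels of 919 to 1180 and 639 to 1120 CPM. Of 11 adipocyte markers 4 were higher (2, 1 and 1) and 2, with Lpl among them, lower (2, 1 and 1).

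The muscle difference after T3 was set beside that after T9, measured in other mice. Of the genes higher after T3, 2290 of 2304 (99.4%) had the same sign after T9, and of the lower ones 1090 of 1119 (97.4%). Among all genes, with both signs pooled, 87.3% did. T9 mice had 5959 called genes (53.0%), 4713 higher (41.9%; 2654 genes without T9 mouse 11 and 3122 without T9 mouse 15) and 1246 lower (11.1%). The T3 difference minus the T9 difference passed limma's test for 5 genes (0.0444%), all higher after T3 (195 higher and 617 lower had an unadjusted p under 0.05), and for 18 with centred libraries. The number called higher was 3, 0, 1 and 8 without mouse 6, 7, 8 or 10, 3 without sham mouse 1, 2 or 5, 10 without sham mouse 4, and 2, 0 and 2 without T9 mouse 12, 13 or 15; none was called lower except 3 without mouse 10 and 5 without sham mouse 4.

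Values are given for 4 of these 5 genes. Gadd45b, a stress gene related to Gadd45a, differed by 0.48 ± 0.19 after T3 and -1.59 after T9 (2.07 ± 0.26, adjusted p = 0.0096; 0.054 to 0.065 without mouse 7, mouse 8 or T9 mouse 12, 13 or 15). Fbp2, the muscle fructose bisphosphatase, gave 0.43 ± 0.15 and -1.36 (1.79 ± 0.21, adjusted p = 0.0073; 0.055 without mouse 7 and 0.052 without T9 mouse 13). Gadd45b was at 2.77 to 10.9 CPM in T9 gastrocnemius, below its other paired groups (11.6 to 41.2). Fbp2 was at 11.6 to 23.2 CPM in T9 gastrocnemius and 24.1 to 52.0 in T9 triceps, with overlapping T3 ranges of 13.6 to 33.1 and 12.9 to 19.5. Ntf5, which encodes the neurotrophin NT-4/5, was at 0.740 to 1.44 CPM in T9 gastrocnemius, 5.51 to 7.74 in T9 triceps, 1.64 to 2.43 in T3 gastrocnemius and 1.91 to 4.79 in T3 triceps (1.70 ± 0.26, adjusted p = 0.040). The predicted gene Gm49794 lay outside the naming rule and is given because the count is small (2.1 ± 0.32, adjusted p = 0.040). Each of these last 2 calls was lost in 10 of the 12 fits without 1 mouse (adjusted p 0.052 to 0.20 and 0.052 to 0.24).

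The mice differed in how far transcript length went with the muscle difference. From the shortest to the longest of 5 equal classes of genes by exon length, the median difference went from -0.09 to 0.14 in mouse 6 and from -0.46 to 1.08 in mouse 10. Genes higher in gastrocnemius had a median exon length of 5332.5 bases and lower ones 2755, against 4382 for all. With the length and GC trend of each library taken out, 1846 genes were higher (16.4%) and 1708 lower (15.2%), and 123 of the 124 genes below the sham difference were called again. Genome-wide, the differences of mice 7, 8 and 10 correlated with each other at r = 0.77 to 0.85 across genes and with mouse 6 at 0.59 to 0.65, a description of libraries that share their processing.

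**Figure D5:**
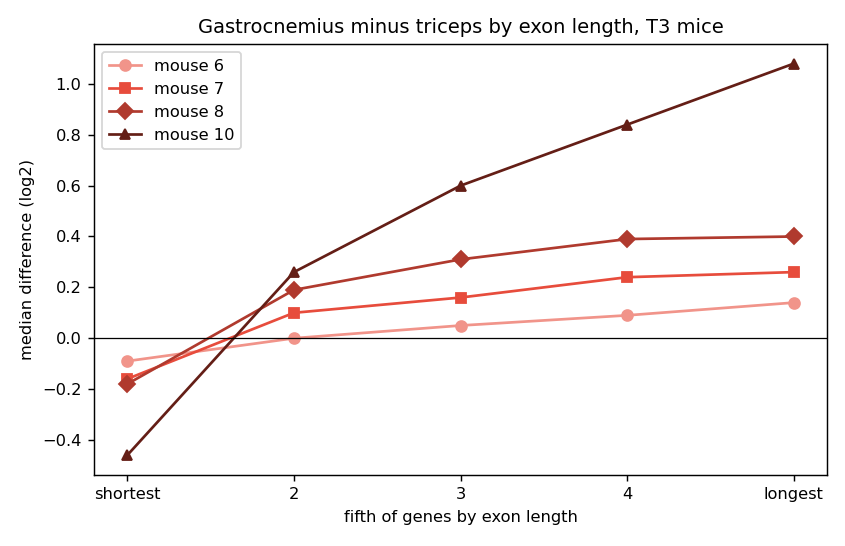
Median gastrocnemius minus triceps difference (log2) in 5 equal classes of all genes by exon length, 1 line per T3 mouse. The line of mouse 10 climbs from -0.46 to 1.08 and that of mouse 6 from -0.09 to 0.14.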

How the data were processed

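The authors deposited 1 table of log2 CPM (reads per 1e+06 reads) for 11249 genes in 30 libraries. Per the labels' protocols, polyadenylated RNA of homogenised muscle was sequenced as directional paired-end libraries; per the submitters' processing notes HISAT2 2.1.0, featureCounts (Subread 1.5.1) and limma were used with mouse build GRCm38. The deposited log2 values are of the voom form, with 0.5 read added: removing that offset gave whole reads for 100% of values within 0.01 read, and CPM in the text come from those reads. How genes were filtered before deposit is not stated.

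Differences came from limma 3.58.1 (R 4.3.3) on the log2 values of the 24 libraries of 12 paired mice, with mouse as a block, a muscle difference per injury group, empirical Bayes with a trend (9 residual and 4.23 prior degrees of freedom) and Benjamini-Hochberg adjustment; all groups share 1 estimate of the spread. The filter, log2 of at least 0 in at least 4 libraries, removed no gene. Since the voom offset of 0.5 read is the pseudocount, differences of genes with few reads are understated. The muscles of 1 number deviated together from their group means in all 4 T3 mice (r = 0.35, 0.446, 0.524 and 0.136 for mice 6, 7, 8 and 10, across genes), which was taken as pairing; sham mouse 1 (0.01) and mouse 4 (-0.638) did not do so. No pair of T3 libraries of 1 muscle agreed within counting noise. The labels do not say how replicates were obtained, so p-values measure the spread between these samples, which may be technical in part. The fit was tested on simulated data with known changes. A log2 change of 1 was called for 47% of 100 genes in the T3 contrast and for 12% in the contrast against sham. A change of 2 was called for 100% and 94%. Changes of about 1 were thus often missed in the simulation, above all against sham. It gave every gene the same dispersion of counts, left 11049 genes unchanged and held no length trend. Its shares need not hold for these data.

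The comparison and the gene lists were chosen with earlier results of these data known. The text names genes by a fixed rule: the largest called differences in each contrast with the same sign in 4 of 4 mice, the members with the smallest adjusted p of each list, all limb identity genes and a panel of muscle genes. Symbols were matched for 11240 of 11249 identifiers. Ribosomal protein, mitochondrial and other genes with near-identical copies are uncertain where reads could be split. The closing part gives the effect of other scalings, filters, pseudocounts, variance models, blocks and sets of mice. A few results the rule would name are not reported here.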

Additional observations from a re-analysis of the deposited data

Results flagged for a closer look

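In 4 quantities 1 T3 mouse stood apart from the other three by the gap test for small groups. Gadd45a differed by 0.00 and Cdkn1a by 0.13 (log2, gastrocnemius minus triceps) in mouse 6, and Snai3 by -1.92 in that mouse. Igf1r, the receptor of insulin-like growth factor 1, differed by 2.27 in mouse 10 and by 0.58, 0.70 and 0.75 in the others; its T3 difference of 1.07 ± 0.30 (limma adjusted p = 0.022) was 0.68 (0.16) without mouse 10 and 1.18 (0.064) without mouse 8. The same test marked the median log2 CPM of the triceps of mouse 10, 3.71, against 3.99, 4.00 and 4.03. Such a test flags about 1 group in 20 by itself, and 99 groups were examined.

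The muscle difference after T3 passed limma's test against that in sham mice for 31 of the genes examined by name, counted on rounded p-values. Dusp1 (-1.44, limma adjusted p 0.050 after rounding) lay just under the threshold and is not in this count. Its call was kept in 2 of the 12 fits without 1 mouse. Among regulators and energy genes the T3 minus sham values were -3.04 for Ppargc1a, -2.59 for Perm1, -2.41 for Ppara, -6.73 for Bdh1, -1.19 for Oxct1, -1.86 for Lpl, -2.11 for Fabp3, -1.09 for Acaa2, -2.45 for Ldhb, -1.75 for Idh2, -1.83 for Mdh1, -0.96 for Sdhd and -1.48 for Ppm1k. In the contractile and stress group they were -2.07 for Myl2, -2.33 for Myoz2, -2.02 for Casq2, -1.89 for Ankrd2, -3.57 for Myh2 and -1.32 for Maff. Others below sham were Atp1b1 at -2.87, Snai3 at -2.99, Prkg1 at -2.05, Gbp10, an interferon-induced GTPase, at -4.29, Dusp18 at -3.51 and Lrrc52 at -9.02, a fitted value that depends on the offset because its gastrocnemius libraries held no read. Above sham stood Fst at 2.32, Sox4 at 2.36, Cebpa at 1.73, Ccdc136 at 1.65, Gpx3 at 1.56 and Cldn5 at 1.14. Of these 31 calls, 20 held in each of the 12 fits without 1 mouse. The calls of Ankrd2, Cldn5 and Sox4 did not: Ankrd2 was lost without 9 of the 12 mice (adjusted p up to 0.16), Cldn5 without 9 (up to 0.15), Sox4 without 7 (up to 0.12), and Maff without mouse 10 (0.051) or mouse 8 (0.080).

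Against T9 the muscle difference after T3 passed the test for Gadd45b (2.07), Fbp2 (1.79), Ntf5 (1.70) and the predicted gene Gm49794 (2.1), and none of these 4 calls held in all 12 fits without 1 mouse.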

How the results depend on the processing

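For T3, without the replicate block that pairs the muscles by mouse the counts were 1466 higher and 670 lower; against sham 6 and 69, against T9 0 and 0. Mouse as a random effect gave 36 higher against sham, and 13 higher and 1 lower against T9. The block by title number and the other filters and variance models kept every count within 1.5 times. Title numbers join the gastrocnemius of T3 mouse 10 with the triceps of mouse 8, and the gastrocnemius of mouse 8 with the triceps of mouse 10. With that block 2230 genes were higher and 1087 lower after T3. Lower genes after T3 numbered 1801 with centred libraries, 1922 with quantile normalization, 1777 with voom weights and 1708 with length and GC removed. Those 4 settings gave 60, 79, 60 and 183 higher against sham (lower: 188, 237 and 388 centred, by quantiles and with length and GC removed) and 18, 19, 16 and 45 higher against T9 (lower: 1, 5, 1 and 21). A pseudocount of 1 CPM gave 3 against T9. With only the groups compared, 1 and 31 genes differed from sham and 3 and 3 from T9; with all 30 libraries 32 were higher against sham, and 12 and 5 against T9. Without sham mice 4 and 5, an alternative chosen after seeing the data, as was the removal of length and GC, the counts were 3926 and 1734 after T3, 5 and 37 against sham and 11 and 6 against T9. Leaving out 1 mouse gave 247 to 3836 higher and 345 to 1709 lower after T3, 2 to 55 and 52 to 128 against sham, and 0 to 10 and 0 to 5 against T9. The sham mice's own difference, 3020 higher and 1354 lower, became 77 and 18 without the block, 3 and 0 with sham alone, 52 and 20 with all libraries, 4 and 2 without mice 4 and 5, 1995 and 2270 centred, 1778 and 2261 with voom weights, 2168 lower with quantile normalization and 1450 higher with length and GC removed; leaving out 1 mouse gave 67 to 3288 and 29 to 1425, the lowest without sham mouse 4. For T9, 4713 and 1246 became 2432 and 2722 centred, 2833 and 2616 by quantiles, 2589 and 2667 with voom weights and 2681 and 2331 with length and GC removed (without 1 mouse 2654 to 5600 and 838 to 1564). The causes were not tested.

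Of 79 named genes called after T3, 61 were called in all 12 fits without 1 mouse; 17 were not without mouse 10, 12 not without mouse 8, 6 not without mouse 7. Signs turned for mt-Atp8 (0.18) and Myh7 (-0.16) with length and GC removed, Smox (-0.02 centred, -0.18 with length and GC removed) and Amd1 (-0.05 centred, -0.01 with voom weights). Depth limits genes of few reads, such as Lrrc52 and Tbx4.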
